A study of Mus musculus with 45 samples.

Results

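DNA copy number was examined at 8 genes of hormone response and luminal cell identity, Esr1, Pgr, Prlr, Stat5a, Stat5b, Gata3, Elf5 and Foxa1, in mouse mammary tumors. A gene was included when the array carried a probe with its name, and all 8 were found. They make up 8 of the 20031 named autosomal genes of the array and have 16 of its 40666 autosomal probes. The genes were taken by name, with no threshold on copy number.

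Luminal cells line the ducts and alveoli of the mammary gland and carry the receptors for estrogen, progesterone and prolactin, while basal cells surround them. Estrogen and progesterone act through receptors that are transcription factors themselves. Prolactin binds a receptor at the cell surface, which signals through the kinase Jak2 to Stat5a and Stat5b and so to the milk protein genes. Gata3 and Foxa1 are transcription factors of hormone-sensing luminal cells, and Elf5 is the transcription factor of alveolar, milk-secreting luminal cells. In human breast cancer several of these genes mark the luminal subtypes.

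Array comparative genomic hybridization measures, probe by probe, how much DNA of a tumor binds relative to a normal reference DNA. The series holds 45 mammary tumors of female mice from 8 genetically engineered models, with 1 array per tumor and pooled normal DNA on each array as the reference, which the labels give both as spleen and as normal mammary gland. The age of the mice was not given in the sources used here, nor whether each tumor came from a separate mouse, so that p-values measure the spread between these arrays. In DNA of a whole tumor, a smaller share of altered cells and fewer altered copies per cell cannot be told apart.

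Of the 8 models, 4 are luminal-type by the rule used here. These are MMTV-PyMT (9 tumors), which carries the polyoma middle T antigen, MMTV-Her2/neu (5 tumors), MMTV-c-Myc (5 tumors) and MMTV-H-Ras (5 tumors). In each the transgene is driven by the long terminal repeat of mouse mammary tumor virus, which is active in mammary epithelium. The 4 other models are MMTV-Wnt1 (5 tumors), with a transgene under the same promoter, C3(1)/SV40 T/t-antigens (5 tumors), with the viral antigens under the C3(1) promoter, BRCA1fl/fl;p53+/-;MMTV-cre (5 tumors, called BRCA1 tumors here), which by its label combines floxed Brca1, MMTV-driven cre recombinase and 1 intact p53 allele, and p53fl/fl;MMTV-cre transplant (6 tumors, called p53 transplant tumors), labelled as transplants with floxed p53 and the same recombinase. The classes were therefore 24 luminal-type tumors against 21 tumors of other models.

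Every value is a log2 ratio centred on the median of the array's autosomal probes, so that 0 stands for the typical copy number of that tumor. The labels put tumor DNA in the Cy5 channel, but the deposited values run the other way. Of 755 filtered intervals in the authors' interval table, 740 (98.0%) had the sign of Cy3 over Cy5 on the same array, and the Brca1 probes in BRCA1 tumors lay between −2.49 and −0.75 when Cy3 was read as tumor. All signs here are Cy3 over Cy5, and with the dyes as labelled every sign turns.

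Some arrays went against their labels. Over 2057 bins of 1 Mb, C3(1)/SV40 T/t-antigens replicate 3 had a profile near-identical to MMTV-Her2/neu replicate 2 (r = 0.960), and so did C3(1)/SV40 T/t-antigens replicate 4 and MMTV-Her2/neu replicate 3 (r = 0.928), where the median r of tumors from different models was 0.075. Both pairs had the same call at all 8 genes. The Wnt1 probe read 0.07 in MMTV-Wnt1 replicate 1 against 1.07 to 1.497 in the other 4 MMTV-Wnt1 tumors. The Myc probe read 1.78 to 3.34 in MMTV-PyMT replicates 4 to 7, but only −0.52 to 1.00 in the MMTV-c-Myc tumors. Its highest value, 5.80, was in p53 transplant replicate 5, with a median of 0.11 at flanking probes, and that array was kept. Without it the calls at the 8 genes in p53 transplant tumors given below were kept, but that of Stat5b in BRCA1 tumors was not. The Hras1 probe read 2.76 in MMTV-PyMT replicate 4 and −0.17 to 0.09 in the MMTV-H-Ras tumors. The Erbb2 value was −0.11 to 0.13 in MMTV-Her2/neu and 0.13 to 0.39 in BRCA1 tumors, and so did not set the MMTV-Her2/neu tumors apart. The Trp53 probes read −0.24 to −0.09 in BRCA1 tumors and −0.53 to 0.17 in p53 transplant tumors, against −0.51 to 0.40 in the remaining 6 models, and so did not set the 2 models apart. Whether they lie in the deleted part was not determined here, and a probe outside it checks nothing. Nor was it determined whether the Hras1 and Erbb2 probes detect the transgenes of MMTV-H-Ras and MMTV-Her2/neu. If they do not, they check nothing about these labels. Slides 1 to 5, which hold 16 arrays with all 5 MMTV-c-Myc, 4 MMTV-Her2/neu, 5 MMTV-PyMT and 2 C3(1)/SV40 T/t-antigens arrays, contain several of these. The counts and calls that change without the near-identical arrays, the doubtful MMTV-Wnt1 array or these slides are given beside the results they touch or in the closing section. On all arrays 96.6% to 99.8% of spots were well above background, and the noise of single probes, as an SD estimated from adjacent probes, was 0.158 to 0.475. The series thus resolves changes over many probes better than differences at the 1 to 3 probes of a gene, and for each gene the median of its 10 nearest probes is given beside its own.

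The 2 steroid receptors lay mostly near 0. Esr1, the estrogen receptor (chr10:5599715-5698796 in mm8, 2 probes, their place in exons or introns not determined here), ranged over the 45 tumors from −0.61 to 0.59 with a median of −0.01. Pgr, the progesterone receptor (chr9:8904046-8927026, 2 probes), ranged from −0.58 to 0.64 with a median of −0.04. Prlr, the prolactin receptor (chr15:10166285-10242774, 2 probes), stood above both, with values from −0.49 to 0.89 and a median of 0.17. It lies near the start of chromosome 15, and in several tumors it was in large gained segments, described later.

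Stat5a (chr11:100681002-100686982, 3 probes) and Stat5b (chr11:100613023-100621127, 2 probes), the signal transducers of prolactin, are neighbours on chromosome 11. Their medians were 0.03 and 0.08, with ranges of −0.38 to 0.80 and −0.39 to 0.63. Gata3 (chr2:9775787-9784858, 2 probes) had a median of −0.17 and a range of −0.75 to 0.83. Foxa1 (chr12:58458853-58458912, 1 probe) had a median of −0.08 and a range of −0.74 to 0.79. Elf5 (chr2:103227481-103250572, 2 probes) lies on the same chromosome as Gata3 and varied more than any other of the 8 genes, from −0.92 to 1.55 with a median of 0.06. Its SD over tumors was 0.604, against 0.213 to 0.310 for the other 7 genes.

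**Figure D1:**
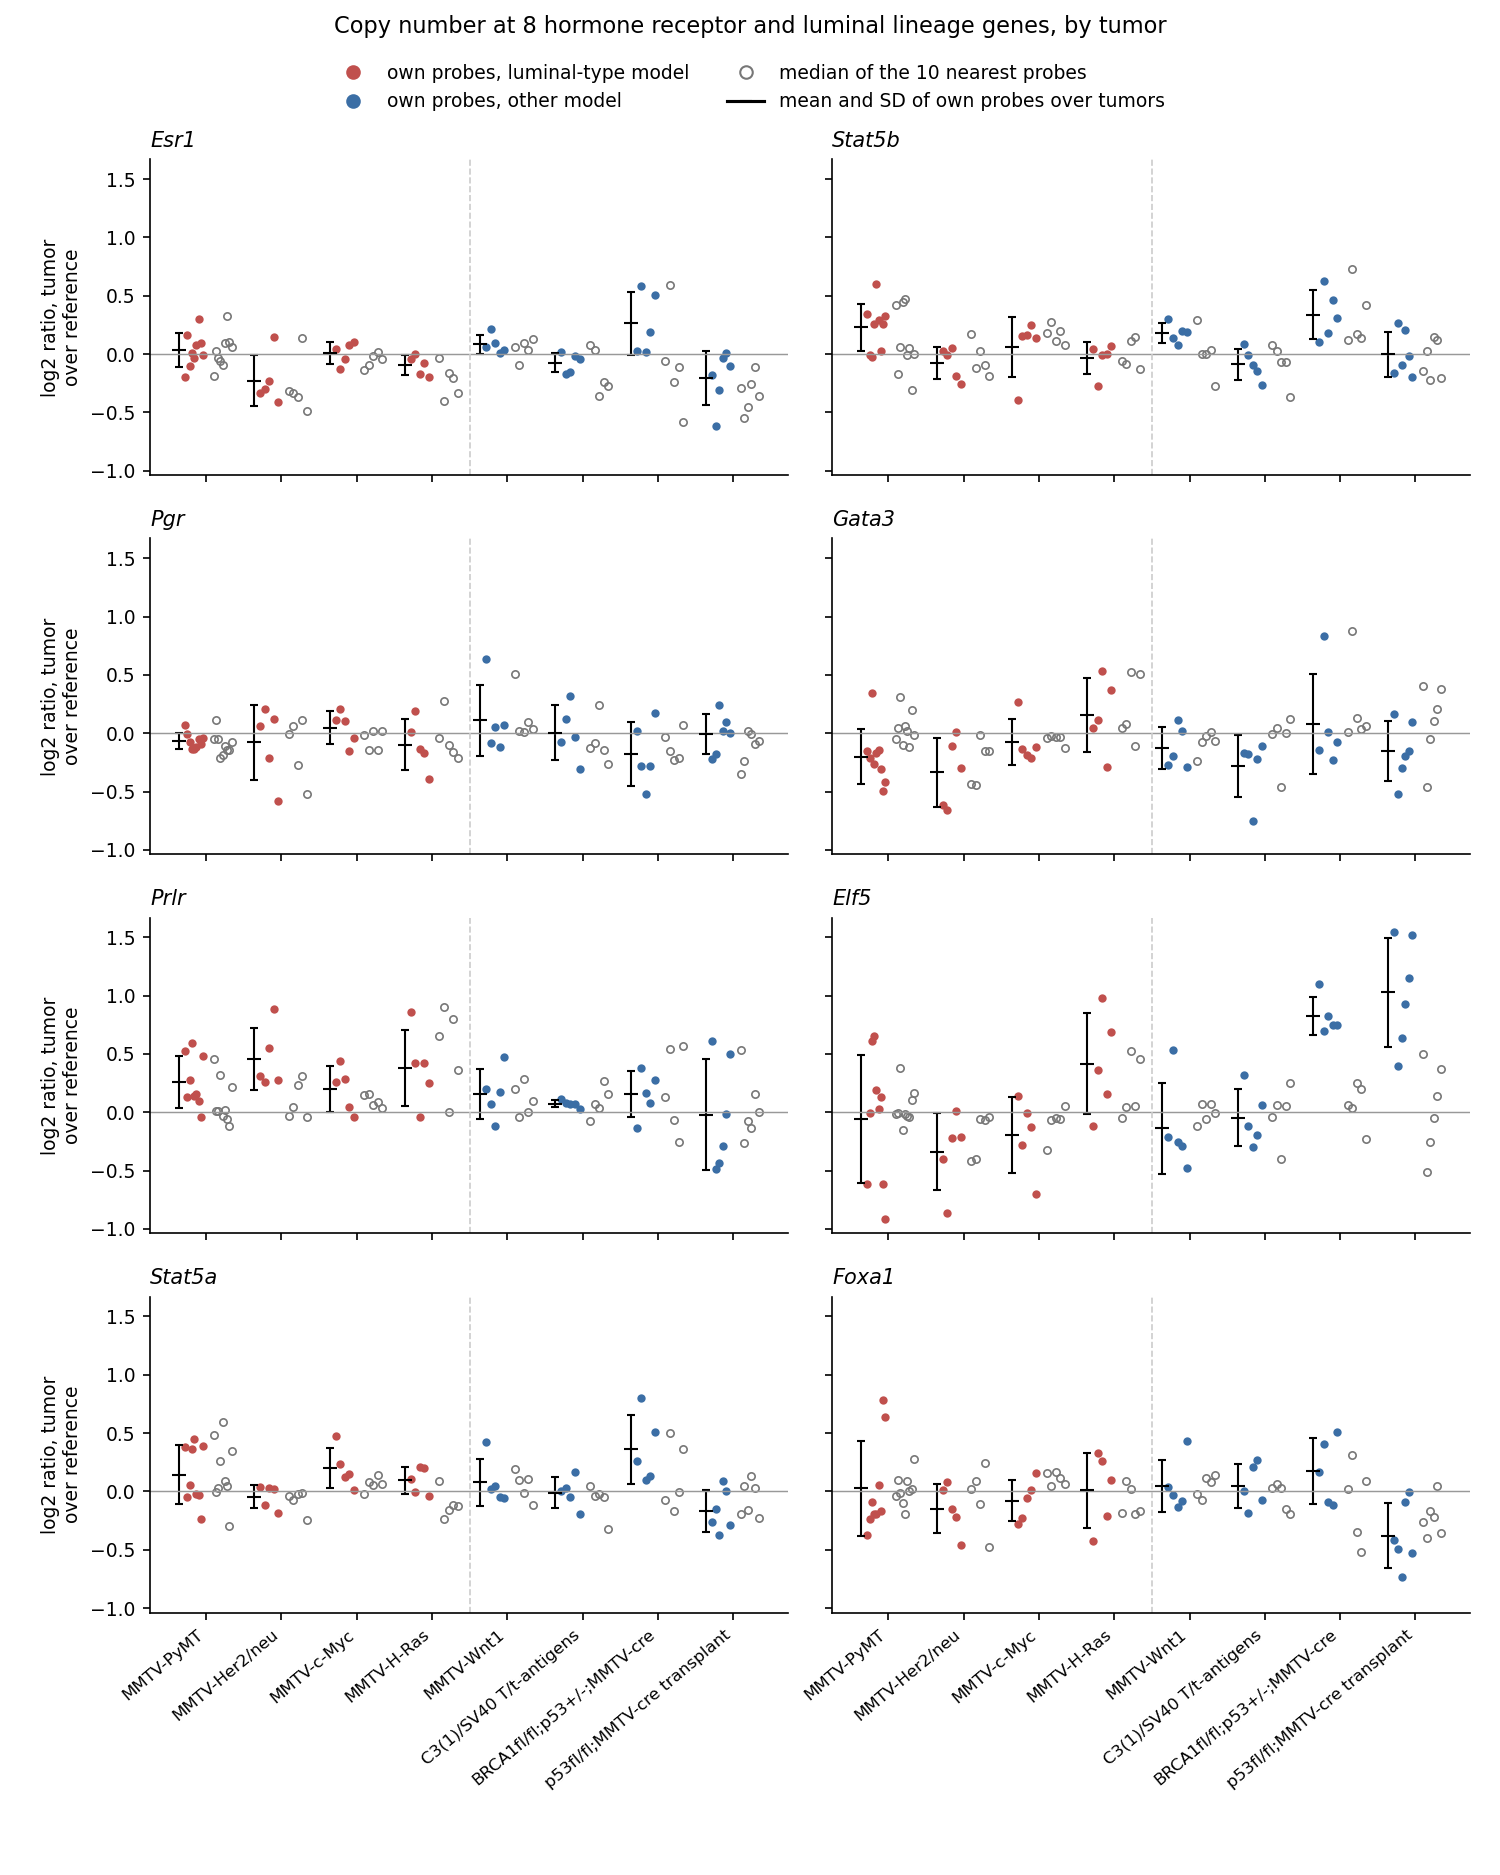
Log2 ratio of tumor over reference (vertical axis) at each of the 8 genes for every tumor, by model (horizontal axis). Filled points are the mean of the gene's own probes, open points the median of its 10 nearest probes, and bars the mean and SD of own probes over the tumors of a model. Own values of Elf5 in the BRCA1 and p53 transplant tumors lie between 0.40 and 1.55, above most of the open points beside them.

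Gained and lost segments were called where a run of at least 5 probes had a mean of at least 0.2 in size. Summed over 8 genes and 45 tumors, 47 of 360 gene and tumor pairs were gained (13.1%) and 38 were lost (10.6%). The shares over all 20031 genes were 13.4% and 11.02%, so the 8 genes as a group were gained and lost about as often as genes in general. The median gene of the array was gained in 6 tumors and lost in 4.

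Prlr was the gene of the group gained most often. It was gained in 14 of 45 tumors (31.1%, exact Clopper-Pearson 95% interval 18.2% to 46.6%), and 5.27% of all genes were gained in as many. It was lost in 0 of 45 tumors, for which the same interval reaches up to 7.87%. The authors' table, however, has Prlr in lost intervals in p53 transplant replicates 2 (−0.46) and 4 (−0.24). The 14 tumors came from 6 models, with 4 MMTV-H-Ras, 3 BRCA1, 3 MMTV-PyMT, 2 p53 transplant, 1 MMTV-Her2/neu and 1 C3(1)/SV40 T/t-antigens tumor. By class they were 8 of 24 luminal-type tumors and 6 of 21 others. The MMTV-Her2/neu and C3(1)/SV40 T/t-antigens tumors (replicates 3 and 4) are one of the near-identical pairs. Without the 4 near-identical arrays and the doubtful MMTV-Wnt1 array, Prlr was gained in 12 of 40 tumors, from 4 models. All 14 gained segments began at the first probe of chromosome 15 and ran for 9.87 to 100.2 Mb, with a median of 66.8 Mb. In 11 of them the segment covered over 50% of the chromosome, and in 9 it also held Myc, a growth-promoting transcription factor farther along chromosome 15. The 10 nearest probes exceeded 0.2 in 12 of the 14 tumors and were below 0 in the other 2, BRCA1 replicate 3 and p53 transplant replicate 6.

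Esr1 was the gene of the group lost most often, in 11 of 45 tumors (24.4%, interval 12.9% to 39.5%), and 12.1% of all genes were lost in as many. The losses were in 4 of 5 MMTV-Her2/neu, 3 of 5 C3(1)/SV40 T/t-antigens, 3 of 6 p53 transplant and 1 of 5 BRCA1 tumors. The 10 nearest probes lay below −0.2 in all 11. Of the lost segments, 8 began at the first probe of chromosome 10, and they were 2.43 to 77.1 Mb long with a median of 38.1 Mb. In the MMTV-Her2/neu tumors the own probes read −0.34, −0.30, −0.23, 0.14 and −0.41 and the 10 nearest probes −0.32, −0.33, −0.37, 0.14 and −0.49, so that only replicate 4 was not below 0. In the p53 transplant tumors the own probes ran from −0.61 through a median of −0.14 to 0.01 and the nearest from −0.55 through −0.33 to −0.11. The near-identical arrays and slides 1 to 5 hold several of these tumors. Without slides 1 to 5, Esr1 was lost in 7 of 29 tumors, and without the 4 near-identical arrays and the doubtful MMTV-Wnt1 array in 7 of 40. Prlr was gained in 12 of 29 tumors without slides 1 to 5.

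The other steroid receptor, Pgr, was gained in 2 tumors and lost in 4. Of all genes, 82.1% were gained and 59.8% lost in as many. Foxa1 was gained in 3 and lost in 7, with losses in 2 luminal-type and 5 other tumors. In as many, 76.0% of all genes were gained and 28.7% lost. The lost Foxa1 segments were 18.3 to 105.8 Mb long. Foxa1 has a single probe, and it did not always follow its surroundings. In MMTV-PyMT replicates 8 and 9 it read 0.79 and 0.64, the highest values of Foxa1 in any tumor, where the 10 nearest probes read 0.02 and 0.28 and no gain was called. The highest Pgr value, 0.64, was in MMTV-Wnt1 replicate 1, where the nearest probes read 0.50 and a gain was called. This is the doubtful MMTV-Wnt1 array, without which 1 Pgr gain is left.

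Stat5a and Stat5b lay in the same segment in all 45 tumors and so had the same call in 45 of 45, gained in 6 and lost in 4. Of all genes, 50.5% were gained and 59.8% lost in as many. The gained segments were 2.61 to 77.4 Mb long. Stat3, a further family member next to them, lay in all 6 gained segments, Erbb2, the Her2 receptor gene, in 5 and Brca1 in 4. The 2 shortest, 2.61 and 3.71 Mb, were in BRCA1 replicates 2 and 5. In the authors' table the gained intervals over Stat5a there were longer, 47.0 Mb with an inner one of 22.8 Mb in replicate 2, and 49.4 Mb in replicate 5. Brca1 read −1.38 and −2.09 in these tumors, and its part in where the segments ended was not tested. Gains were found in 3 MMTV-PyMT, 2 BRCA1 and 1 MMTV-Wnt1 tumor, the last being replicate 1, whose label is in doubt.

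Gata3 was gained in 6 tumors and lost in 4, and Elf5 was gained in 8 and lost in 4. The shares of all genes gained in as many were 50.5% and 31.2%, and lost in as many 59.8% for both. Both are on chromosome 2. In the tumors where either was altered, they never lay in the same segment of the segmentation used here. Their calls were the same in 41 of 45 tumors, with both gained in 5, both lost in 4 and opposite calls in 0. In the authors' table, 1 interval of 178.6 to 178.7 Mb held both genes in most of these altered tumors. These were MMTV-H-Ras replicates 3 and 5, p53 transplant replicates 1, 2 and 6, MMTV-PyMT replicate 3 and MMTV-Her2/neu replicates 1 and 2. The calls of the 2 genes cannot be counted as separate events there. Of the 4 tumors with both lost, C3(1)/SV40 T/t-antigens replicate 3 and MMTV-Her2/neu replicate 2 are a near-identical pair, and 2 are left without the 4 near-identical arrays. All 10 altered Gata3 segments were borne out by the 10 nearest probes beyond 0.2 in the same direction. The highest Gata3 value, 0.83, was in BRCA1 replicate 2, with 0.88 at the nearest probes, and the lowest, −0.75, in C3(1)/SV40 T/t-antigens replicate 3, with −0.46, one of the near-identical arrays. For Elf5 this held in 5 of 8 gains, and 3 of the 8 gained segments were under 10 Mb with 10 to 14 probes, in BRCA1 replicate 5 and p53 transplant replicates 1 and 5.

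**Figure D2:**
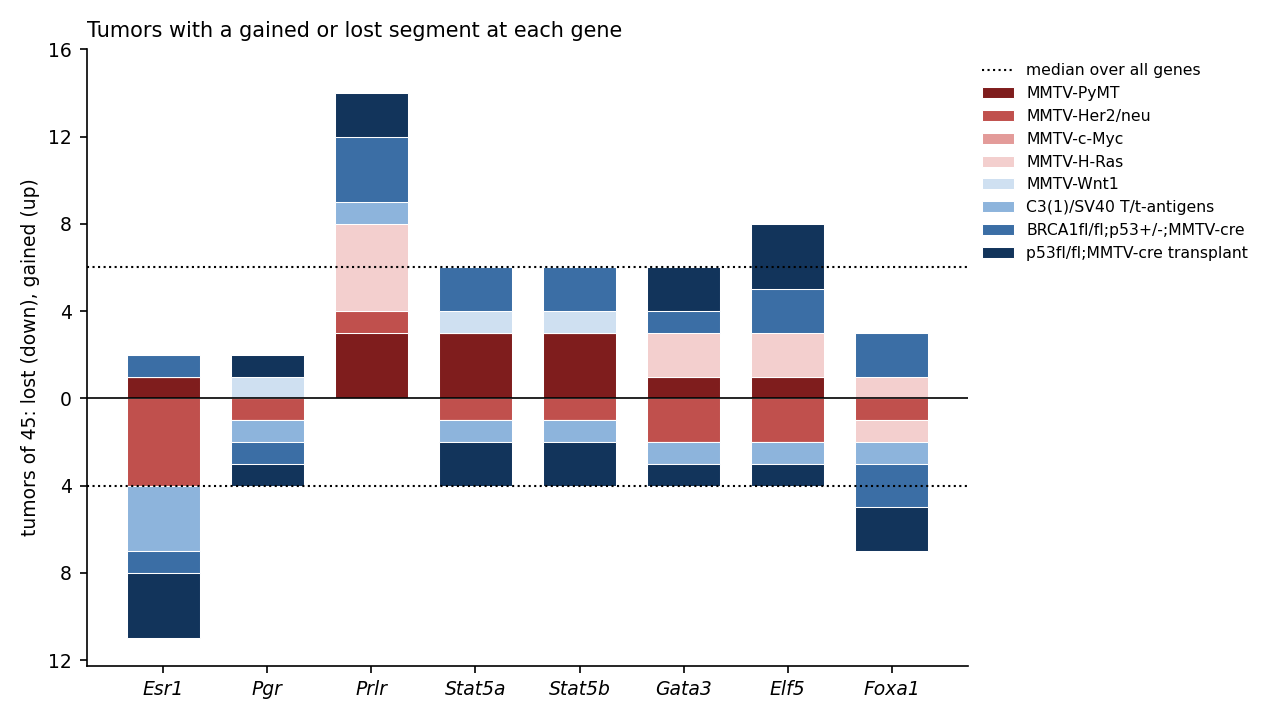
Number of the 45 tumors (vertical axis) with a gained (up) or lost (down) segment at each gene, stacked by model, with dotted lines at the median over all genes of 6 gained and 4 lost. Prlr has 14 gains and 0 losses, and Esr1 has 2 gains and 11 losses.

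The number of altered genes varied widely between tumors. In 16 tumors none of the 8 genes was altered, in 7 tumors 1 was, in 7 tumors 2 were, in 9 tumors 3 were, and in the remaining 6 tumors 5 to 8 were. In p53 transplant replicate 1 all 8 were altered, 3 gained and 5 lost, and in replicate 6 of the same model 7 were. BRCA1 replicate 2 had 6 gained genes, and BRCA1 replicate 5 had 5 gained and 1 lost. MMTV-Her2/neu replicate 5 and C3(1)/SV40 T/t-antigens replicate 5 each had 5 lost genes and no gained one. None of the 8 genes was altered in any of the 5 MMTV-c-Myc tumors, and in the MMTV-Wnt1 model only replicate 1 had any. The Myc probe was lower in all MMTV-c-Myc arrays than in MMTV-PyMT replicates 4 to 7. These labels are thus in doubt, as is that of MMTV-Wnt1 replicate 1.

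Whether these genes differ between luminal-type and other models was tested with limma on all 20031 genes, with Benjamini-Hochberg adjustment and each model weighing the same within its class. At an adjusted p of 0.05, 36 genes were called (0.18% of those tested), 10 higher in luminal-type models (0.0499%) and 26 lower (0.13%). This count was not stable, with 149 and 147 genes when p53 transplant replicate 2 or 3 was left out, 6 without the 4 near-identical arrays and 4 without slides 1 to 5. None of the 8 genes was among them. At an unadjusted p under 0.05 there were 1647 genes (8.22%), and Prlr and Elf5 were 2 of them. The median difference over all genes was 0.003.

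Averaged over its 2 probes, 1 of them dim as described below, Prlr had a median of 0.28 in luminal-type and 0.08 in other tumors. In the MMTV-Her2/neu tumors it read 0.31, 0.26, 0.56, 0.89 and 0.28, and in the MMTV-H-Ras tumors 0.86, 0.42, −0.04, 0.42 and 0.25. The MMTV-c-Myc tumors read 0.26, 0.44, 0.29, 0.04 and −0.04, and the MMTV-PyMT tumors had a lowest value of −0.04, a median of 0.16 and a highest of 0.59. Thus 21 of 24 luminal-type tumors were above 0. Of the other models, MMTV-Wnt1 read 0.20, 0.07, −0.12, 0.17 and 0.47, C3(1)/SV40 T/t-antigens 0.12, 0.08, 0.07, 0.07 and 0.03, and BRCA1 −0.13, 0.38, 0.16, 0.08 and 0.28. The p53 transplant tumors ran from −0.49 through a median of −0.15 to 0.61. Here 15 of 21 tumors were above 0, and the classes overlapped over most of their range.

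In order of their mean, the models ran from MMTV-Her2/neu (0.46) through MMTV-H-Ras (0.38), MMTV-PyMT (0.26), MMTV-c-Myc (0.20), MMTV-Wnt1 (0.16), BRCA1 (0.15) and C3(1)/SV40 T/t-antigens (0.07) to p53 transplant (−0.02). All 4 luminal-type means were above all 4 others, although no 2 neighbours in this order differed by more than their spread. The difference at Prlr, luminal-type minus other, on the mean of both probes was 0.23 (SE 0.0819, 95% interval 0.07 to 0.40), which failed the limma adjustment over all genes (adjusted p = 0.325). An exact permutation of the 8 model means gave p = 0.0286 (two-sided), the smallest that 4 against 4 can give. This order and its p rest on the dim probe as well, and at the brighter probe alone the order was another, with C3(1)/SV40 T/t-antigens (0.36) and BRCA1 (0.36) above MMTV-Her2/neu (0.34) and MMTV-PyMT (0.28).

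The difference at Prlr came from 1 of its 2 probes. Probe A_53_P141212 (chr15:10166285-10166344) differed by 0.39 (SE 0.111, limma adjusted p = 0.151) and probe A_53_P158477 (chr15:10242715-10242774) by 0.08 (SE 0.076, limma adjusted p = 0.886). The first probe was dim, with 71.9% of its spots well above background and 23.7% given as a ratio of exactly 0, while 100% of the spots of the second were well above background. At the second probe the median was 0.24 in luminal-type and 0.28 in other tumors. Restricted to probes well above background on every array, the difference was 0.08, with normexp background correction 0.003, and over the 10 nearest probes 0.10. The medians of these 10 probes were 0.08 in luminal-type and 0.07 in other tumors. Without slides 1 to 5 the difference on own probes was 0.43, and with slide as a fixed effect and the BRCA1, p53 transplant and MMTV-H-Ras tumors left out it was −0.05. The part of the dim spots in the result was not tested further.

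**Figure D3:**
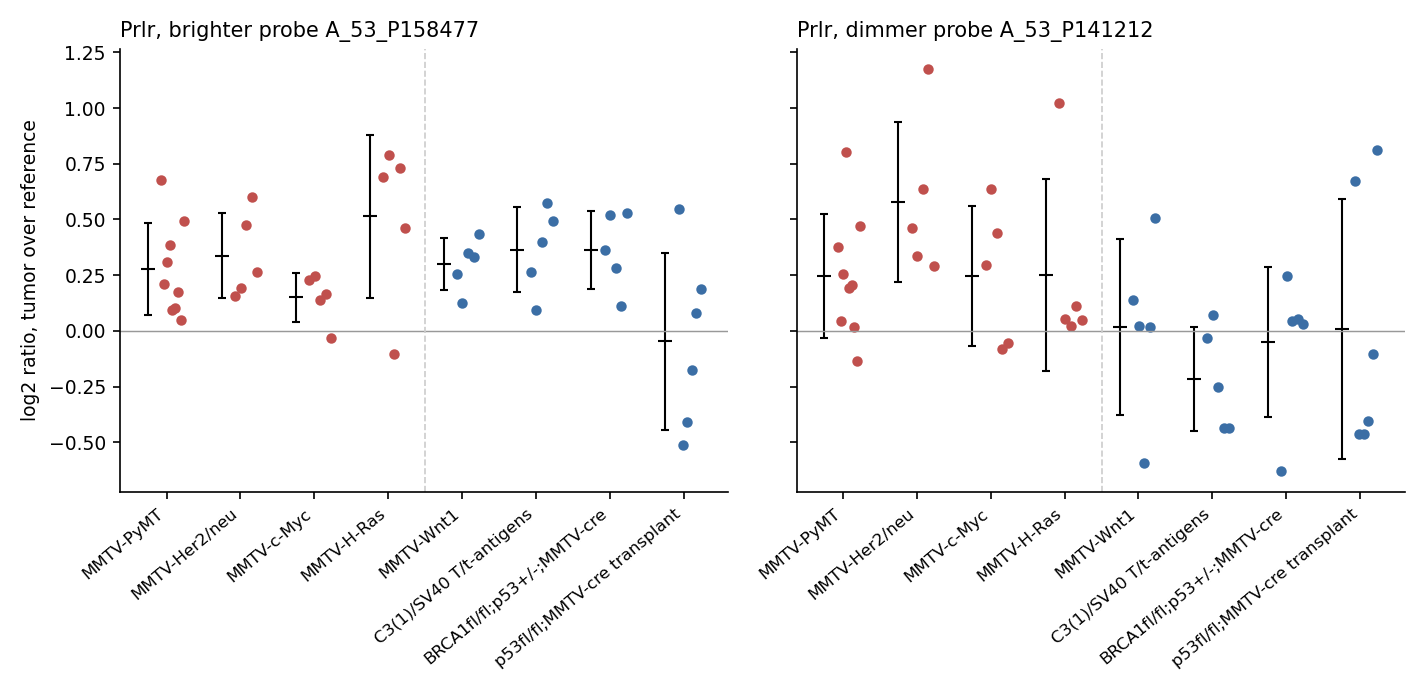
Log2 ratio of tumor over reference (vertical axis) at the 2 probes of Prlr in every tumor, by model (horizontal axis), with the mean and SD of each model. Tumors of the 2 classes, red for luminal-type and blue for other models, overlap at the brighter probe (left), where the difference was 0.08, and separate more at the dimmer one (right), where it was 0.39.

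Elf5 went the other way and had the largest difference of the group. In the BRCA1 tumors it read 1.104, 0.70, 0.83, 0.75 and 0.75, and in the p53 transplant tumors from 0.40 through a median of 1.04 to 1.55. All 11 tumors of these models were above every MMTV-Her2/neu and MMTV-c-Myc tumor. The MMTV-Her2/neu tumors read −0.40, −0.86, −0.22, 0.01 and −0.21, the MMTV-c-Myc tumors 0.14, −0.28, −0.01, −0.12 and −0.70, and the MMTV-PyMT tumors from −0.92 through 0.03 to 0.66. The MMTV-H-Ras tumors read −0.12, 0.37, 0.98, 0.16 and 0.69, the highest of the luminal-type class. In the remaining models, C3(1)/SV40 T/t-antigens read 0.32, −0.12, −0.30, −0.20 and 0.06 and MMTV-Wnt1 −0.21, 0.53, −0.25, −0.29 and −0.48, so the other class was itself divided.

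The model means of Elf5 ran from p53 transplant (1.03) and BRCA1 (0.83) through MMTV-H-Ras (0.42), C3(1)/SV40 T/t-antigens (−0.05), MMTV-PyMT (−0.06), MMTV-Wnt1 (−0.14) and MMTV-c-Myc (−0.20) to MMTV-Her2/neu (−0.34). The step from MMTV-H-Ras to C3(1)/SV40 T/t-antigens was the only one between neighbours larger than their spread, and for none of the other 7 genes was any such step found. Luminal-type minus other came to −0.46 (SE 0.117, 95% interval −0.70 to −0.22) and was not called by limma (adjusted p = 0.0769). The exact permutation of the model means gave p = 0.2 (two-sided). The call depended on MMTV-Wnt1 and on single p53 transplant tumors. With MMTV-Wnt1 left out of the other class, the difference was −0.65 and called (limma adjusted p = 0.00273), and it was also called without p53 transplant replicate 2 (−0.49, limma adjusted p = 0.0232) or replicate 3 (−0.48, limma adjusted p = 0.0342).

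At Elf5, too, a single probe carried the difference. When each probe was tested singly, 101 of 40666 were called (0.248%), and 1 of the 16 probes of the 8 genes was among them, A_53_P112675 at chr2:103250514-103250572 (difference −0.81, SE 0.158, limma adjusted p = 0.00877). The other Elf5 probe, A_53_P176387 at chr2:103227481-103227540, differed by −0.11 (SE 0.111, limma adjusted p = 0.878). Probe A_53_P112675 read 2.44, 1.69, 1.34, 1.45 and 1.37 in the BRCA1 tumors and 1.197 to 2.65 in the p53 transplant tumors. It exceeded 1 in all 11 of these, in 2 MMTV-H-Ras tumors (1.62 and 1.31) and 1 MMTV-PyMT tumor (1.18), and in no other. Its model means were 1.998 in p53 transplant, 1.66 in BRCA1, 0.81 in MMTV-H-Ras and 0.46 in C3(1)/SV40 T/t-antigens tumors, and between −0.35 and 0.29 in the other 4 models.

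The second probe, 23033 bp away, had means of −0.01 in BRCA1 and 0.06 in p53 transplant tumors and between −0.56 and 0.02 elsewhere. The 2 Elf5 probes differed by more than 0.5 in 30 of 45 tumors, with a median size of the difference of 0.897. Among 8435 genes with 2 probes the median was 0.227, and 0.249% of them differed by as much as Elf5. All spots of both probes were well above background. The 10 nearest probes, which lie in and around Ehf, Cat and Abtb2 within 371 kb, differed between the classes by −0.13 to 0.04, and their medians were −0.04 in luminal-type and 0.06 in other tumors. Their difference was −0.03 (limma adjusted p = 0.941).

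**Figure D4:**
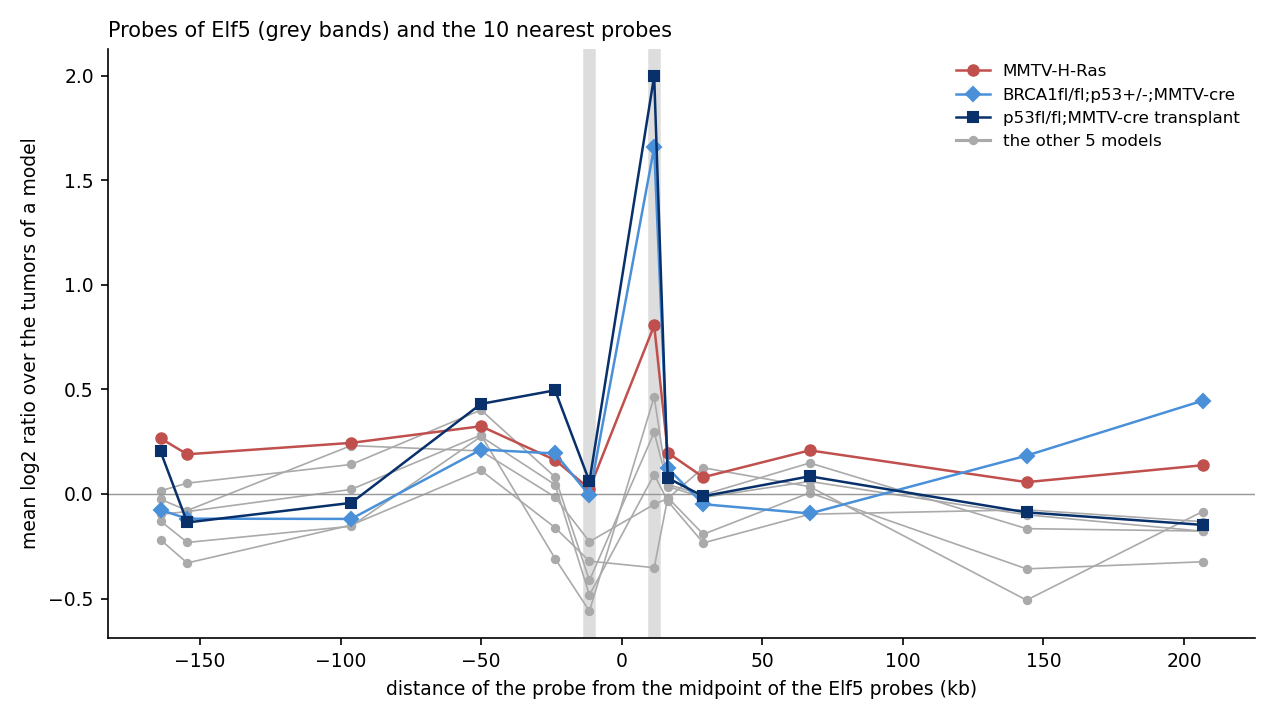
Mean log2 ratio over the tumors of each model (vertical axis) at the 2 probes of Elf5 (grey bands) and the 10 nearest probes, by distance from the midpoint of the Elf5 probes in kb (horizontal axis). At 1 of the 2 Elf5 probes the means of the p53 transplant and BRCA1 tumors reach 1.998 and 1.66, while the second Elf5 probe has means of 0.06 and −0.01.

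The remaining 6 genes differed little between the classes. Esr1 ran from −0.41 through a median of −0.04 to 0.30 in luminal-type tumors and from −0.61 through 0.01 to 0.59 in the others, a difference of −0.09 (95% interval −0.20 to 0.02). For Pgr the difference was −0.03 (−0.17 to 0.10), for Stat5a 0.03 (−0.09 to 0.16) and for Stat5b −0.06 (−0.18 to 0.06). Gata3 and Foxa1, the transcription factors of hormone-sensing cells, differed by 0.01 (−0.16 to 0.17) and −0.02 (−0.19 to 0.16). Their model means were spread over less than those of Elf5. The highest and lowest were 0.27 in BRCA1 and −0.23 in MMTV-Her2/neu tumors for Esr1, 0.11 in MMTV-Wnt1 and −0.18 in BRCA1 for Pgr, 0.36 in BRCA1 and −0.17 in p53 transplant for Stat5a, and 0.34 in BRCA1 and −0.09 in C3(1)/SV40 T/t-antigens for Stat5b. For Gata3 they were 0.15 in MMTV-H-Ras and −0.335 in MMTV-Her2/neu, and for Foxa1 0.17 in BRCA1 and −0.38 in p53 transplant tumors. The adjusted p-values of limma for these 6 genes were 0.728 to 0.994, and their classes overlapped throughout. The intervals reach no further than 0.20 in size for each of the 6 genes. They rest on the spread of arrays within models. The spread among models of a class or among slides is not in them, so larger differences between classes are not excluded. Apart from the turned dyes, the sign turned under 11 of 19 other settings at Foxa1, 10 at Gata3, 3 at Stat5b, 2 each at Esr1 and Pgr and 0 at Stat5a.

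**Figure D5:**
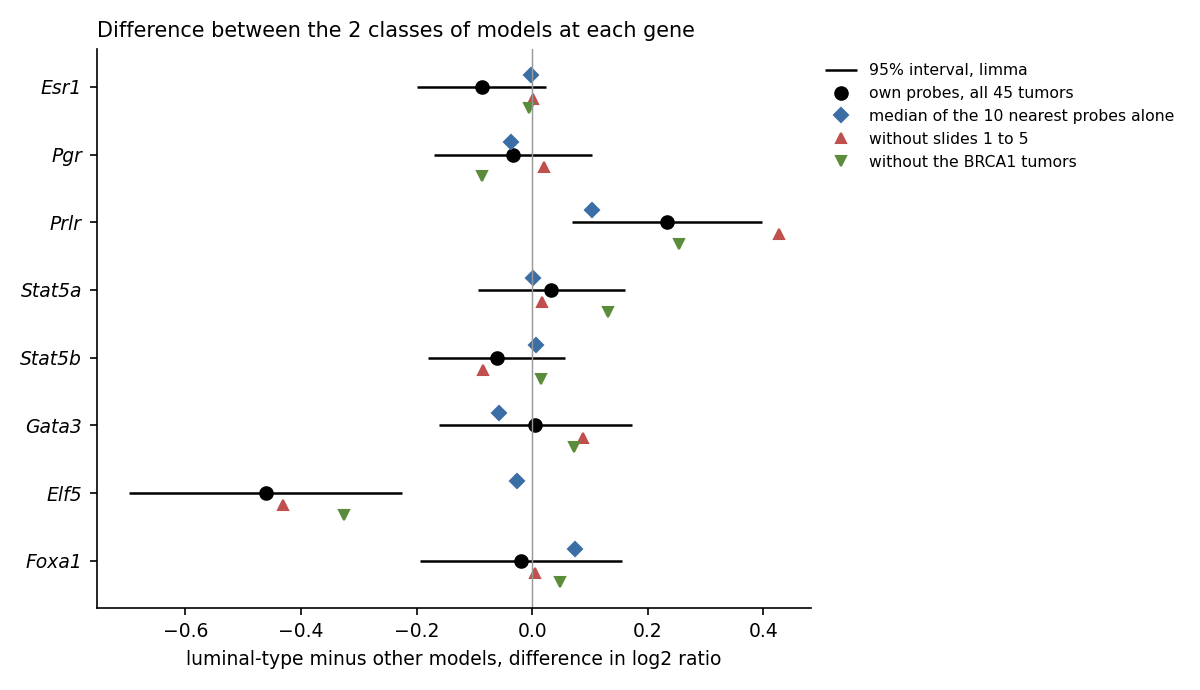
Difference in log2 ratio between luminal-type and other models (horizontal axis) at each gene, with the 95% interval of limma, and the same difference over the 10 nearest probes, without slides 1 to 5 and without the BRCA1 tumors. The intervals of Prlr (0.07 to 0.40) and Elf5 (−0.70 to −0.22) do not include 0, and over the 10 nearest probes the difference was 0.10 at Prlr and −0.03 at Elf5.

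Slide and scan date moved with the models. The arrays lie on 18 slides, of which 3 hold tumors of both classes, and were scanned on 10 dates, of which 4 do. On each of the 3 slides the other class is a single tumor, and 1 of the 4 dates holds the same 3 arrays as 1 of the slides, so these values are descriptions of few tumors. Within these slides the Prlr difference was −0.25 to 0.23 and higher in luminal-type tumors on 2 of 3, and within the dates −0.25 to 0.82, higher on 3 of 4. For Elf5 it was −0.42 to 0.17 within slides, lower on 2 of 3, and −1.08 to 0.09 within dates, lower on 3 of 4. Within dates, Esr1 (0.01 to 0.15), Stat5b (0.04 to 0.10) and Stat5a (0.09 to 0.37) were higher in luminal-type tumors on 4 of 4, where the differences over all tumors were −0.09, −0.06 and 0.03. Pgr was lower on 3 of 3 slides (−0.20 to −0.14) and on 3 of 4 dates. All BRCA1, p53 transplant and MMTV-H-Ras tumors are on slides with no other model, so their levels and those of their slides cannot be told apart.

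Across the 8 models, rather than between 2 classes, 4 of the 8 genes differed by limma's F test, at which 4201 genes were called (21%). They were Elf5 (adjusted p = 8.02e-05), Esr1 (0.0174), Stat5b (0.0289) and Stat5a (0.0399). Prlr (0.208), Gata3 (0.182), Foxa1 (0.179) and Pgr (0.636) did not pass. The share of 4 in 8 stands beside 21% of all genes, with no test of the difference. Over the 10 nearest probes alone, none of the 8 passed. With slide as a random block, Elf5 and Esr1 passed, and Stat5a and Stat5b did not. Without slides 1 to 5, Elf5 and Stat5b passed, and without the 4 near-identical arrays only Elf5 did. Stat5a dropped out when any 1 of 9 tumors was left out, among them BRCA1 replicates 2 and 5 and p53 transplant replicates 1, 2, 3 and 6, with an adjusted p of 0.0528 to 0.0840, and Stat5b without BRCA1 replicate 2 (0.0546).

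When each model was set against the mean of the other 7, the 8 genes gave 7 calls in 64 tests, all in the BRCA1 and p53 transplant tumors. The share of all genes called was 5.2% in BRCA1, 16.7% in p53 transplant, 4.66% in MMTV-H-Ras, 0.669% in MMTV-c-Myc, 0.504% in MMTV-PyMT, 0.0849% in MMTV-Wnt1, 0.03% in MMTV-Her2/neu and 0.00499% in C3(1)/SV40 T/t-antigens tumors. In BRCA1 tumors, Esr1 was higher by 0.33 (SE 0.087, limma adjusted p = 0.0164), Stat5a by 0.32 (SE 0.0986, 0.0467), Stat5b by 0.30 (SE 0.0921, 0.0463) and Elf5 by 0.73 (SE 0.184, 0.0121). In p53 transplant tumors, Elf5 was higher by 0.96 (SE 0.170, limma adjusted p = 0.000116), Stat5a was lower, at −0.28 (SE 0.0912, 0.0282), and so was Foxa1, at −0.39 (SE 0.125, 0.0287). With slide as a random block, 4 of the 7 calls were lost, those of Stat5a (limma adjusted p = 0.0812) and Stat5b (0.0972) in BRCA1 tumors and of Stat5a (0.0646) and Foxa1 (0.0632) in p53 transplant tumors, while their differences stayed at 0.33, 0.30, −0.29 and −0.39. Without the 4 near-identical arrays, Stat5a and Stat5b in BRCA1 tumors were no longer called (limma adjusted p = 0.0627 for both), at differences of 0.32 and 0.30. Neither was Foxa1 in p53 transplant tumors (difference −0.36, limma adjusted p = 0.0600). Over the 10 nearest probes alone none of the 7 was called. The only call there was Prlr in MMTV-H-Ras tumors (0.44, limma adjusted p = 0.0119). With normexp background correction, only Elf5 and Foxa1 in p53 transplant tumors stayed called. Without slides 1 to 5, of the 7 calls those of Elf5 in both models were kept, and Elf5 was also called lower in MMTV-PyMT tumors (−0.87, limma adjusted p = 0.0388).

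The own probes of Esr1 read 0.02, 0.59, 0.01, 0.19 and 0.51 in the 5 tumors, while the 10 nearest probes read −0.06, 0.59, −0.24, −0.11 and −0.58. Replicate 2 was thus high in both. Of the 2 Esr1 probes, A_53_P128821 had a mean of 0.48 in the BRCA1 tumors and A_53_P164384 a mean of 0.05. Replicate 5 read 1.17 at the first and −0.15 at the second, and its segment was called lost. The higher Esr1 mean of this model therefore came mostly from 1 probe, as at Prlr and Elf5. Without replicate 2 or without replicate 5 the call was lost, the adjusted p reaching 0.115. Over the 10 nearest probes the difference was 0.06.

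Stat5a in BRCA1 tumors read 0.26, 0.80, 0.10, 0.13 and 0.51, and Stat5b 0.11, 0.63, 0.18, 0.46 and 0.31. All 10 values were above 0, and replicate 2 was the highest at both genes. The mean of the 10 nearest probes was 0.12 at Stat5a and 0.32 at Stat5b, against own means of 0.36 and 0.34. These are not independent of each other, since the 10 nearest probes of Stat5b include the 3 of Stat5a and those of Stat5a the 2 of Stat5b. Both calls were close to the threshold. Leaving out each tumor in turn, Stat5a was not called in 26 of 45 fits (adjusted p up to 0.276) and Stat5b in 23 of 45 (up to 0.208).

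In p53 transplant tumors Stat5a ran from −0.38 through a median of −0.21 to 0.09, and Foxa1 from −0.74 through −0.46 to −0.01. Foxa1 was below 0 in all 6 tumors and Stat5a in 4. The mean of the 10 nearest probes was −0.22 at Foxa1 and −0.06 at Stat5a. Stat5a lost its call without replicate 1, 2, 3 or 6, and Foxa1 without replicate 2, 3 or 6, the adjusted p reaching 0.124 and 0.142. The Elf5 calls held in all 45 such fits for both models, with adjusted p-values up to 0.0452 in BRCA1 and 0.00176 in p53 transplant tumors. With the 10 nearest probes in place of the 2 Elf5 probes, neither was called (differences 0.07 and 0.03), nor with own and nearest probes together, and with normexp background correction the call in BRCA1 tumors was lost (0.51, limma adjusted p = 0.0915).

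Over the 45 tumors, whose genes share each array and its centring, correlations were computed as a description. The Pearson correlation of Stat5a and Stat5b was 0.53 on own probes and 0.80 on their 10 nearest probes, several of which the 2 genes share. For Gata3 and Elf5 it was 0.48 and 0.77. Between chromosomes, the highest value was 0.50 on own probes, for Esr1 and Stat5a (0.34 on nearest), and 0.56 on nearest probes, for Esr1 and Foxa1 (0.46 on own). Esr1 and Foxa1 were both lost in 4 tumors, both gained in 1 and called in opposite directions in 1. For each gene, the 2 most similar genes of its own chromosome and the most similar gene of another were taken. On the same chromosome these were for Gata3 Ndufa8 (0.93) and Kin (0.91), for Stat5b Stard3 (0.87) and Aoc2 (0.84), for Stat5a BC030867 (0.86) and Ptrf (0.84), for Foxa1 AK006151 and 4921506M07Rik (both 0.89), for Elf5 Entpd8 and Zfp313 (both 0.83), for Pgr Sc5d (0.81) and Olfr976 (0.79), for Prlr C1qtnf6 (0.79) and Mcrs1 (0.75), and for Esr1 9130014G24Rik (0.74) and AK045934 (0.72). The most similar gene on another chromosome was 2200002K05Rik for Foxa1 (0.83) and Pogk for Elf5 (0.77), and for the other 6 the values were 0.60 to 0.70.

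Other genes of the same pathways were taken from 5 lists of 15 genes, of which 66 of 75 were measured. Of these, 1 was called between the classes, Tff1, an estrogen-responsive secreted peptide (0.35 higher in luminal-type models, SE 0.0725, limma adjusted p = 0.0169, 1 probe), where 0.18% of all genes were. It stayed called without any single tumor, but was not called in 9 of 18 other settings. Over the 10 nearest probes alone the difference was 0.16 (limma adjusted p = 0.482), and with normexp background correction 0.06 (0.807). Without the 4 near-identical arrays it was 0.35 (limma adjusted p = 0.103), and without BRCA1 tumors 0.37 (0.0856). With tumors pooled within class it was 0.37 (limma adjusted p = 0.348). Without slides 1 to 5 the difference was 0.46. Among the partners and targets of the hormone receptors this was 1 of 14, with a median difference of −0.01. None of 12 genes of the prolactin, Jak and Stat5 pathway was called (median 0.00), nor any of 14 luminal transcription factors (0.00), 13 luminal cell markers (0.04) or 13 basal cell markers (−0.03). By the F test across models, 14 of the 66 differed, a share close to the 21% of all genes called by that test, from which nothing is read about the lists.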

How the data were processed

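Genomic DNA of 45 tumors, grouped by the model named in the labels, was hybridized against pooled reference DNA on 2-colour Agilent arrays with mm8 coordinates. The authors deposited the scanner software's output (Feature Extraction 9.5.1.1 per the file headers, 10.7 per the submitters' processing notes). Its deposited fluorescence intensity values are background-subtracted and dye-normalized, and the deposited log10 ratio is Cy5 over Cy3. The authors' interval table gives a mean log2 ratio per interval. It was used for the direction of the dyes and as an alternative call, and its p-values and 8 tables of single models were not used.

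Ratios were turned to Cy3 over Cy5 after the values were seen, converted to log2, centred on each array's autosomal median and averaged over spots and then over the probes of a gene, leaving out controls and outlier-flagged spots. Segments came from circular binary segmentation (Python 3.11.15, numpy 2.4.6, numba 0.67.0; split statistic 6, at least 5 probes, calls at 0.2). Models were compared with limma 3.58.1 (R 4.3.3, Benjamini-Hochberg over all genes, 0.05), and single genes also by exact permutation of 8 model means (scipy 1.17.1). The fits were tested on simulated data. Precision was limited by the number of arrays and by 1 to 3 probes a gene. Signal was 3.67 to 16.7 times background in Cy3 and 2.09 to 14.4 times in Cy5.

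Members and gene lists were chosen with earlier results of these data known. Named besides them were the genes called in the lists, the genes that check the labels, and the 3 genes most similar to each member. Alternatives changed the centring, background correction, normalization, filters, probes, classes, batches, arrays in doubt, call threshold and dye direction. Those without slides 1 to 5 or without BRCA1 tumors, with slide or date fixed after models were left out, with each probe singly and with the 10 nearest probes alone were added after the data were seen.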

Additional observations from a re-analysis of the deposited data

Results flagged for a closer look

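Within 64 groups of 1 gene in 1 model, 9 held a tumor whose own-probe log2 ratio stood apart from the others by Dixon's test. Chance alone marks about 1 in 20 groups. MMTV-Wnt1 replicate 1, whose Wnt1 probe lacked the transgene signal, stood apart at Pgr (0.635, next value 0.07) and at Stat5a (0.424, next value 0.04). The segments there were called gained. MMTV-Wnt1 replicate 2 stood apart at Elf5 (0.535), where its nearest probes read 0.07.

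Gata3 had 4 such tumors. BRCA1 replicate 2 (0.832) and MMTV-PyMT replicate 3 (0.342) were high and C3(1)/SV40 T/t-antigens replicate 3 (−0.753) was low, each with nearest probes of the same sign beyond 0.3 in size (0.88, 0.31 and −0.46). MMTV-c-Myc replicate 1 was high at Gata3 (0.269) with nearest probes at −0.05. At Stat5b, MMTV-c-Myc replicate 1 (−0.390) and MMTV-H-Ras replicate 2 (−0.271) were low, with nearest probes at 0.18 and −0.09.

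The 8 models differed by limma's F test at Elf5 (adjusted p = 8.02e-05), Esr1 (0.0174), Stat5b (0.0289) and Stat5a (0.0399). The part of slide and scan date in these differences was not tested beyond the values of the next section.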

How the results depend on the processing

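Arrays give no depth; the limit here is the noise of single probes. In all, 436 values were computed under 27 settings other than leaving out single tumors, of which 304 kept direction and side of the threshold, 72 moved, 18 were no longer called, 5 became called and 37 changed sign (29 without those of the turned dyes). No paired analysis was possible because replicate numbers were given in accession order and pair no tumors, and arrays that share a slide were compared through the fits with slide. Slide or scan date as a fixed effect could not be fitted with all models present. Unless a construction with fewer samples or genes shows it, the cause was not tested.

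Genes called between the classes numbered 36, and 9 with probes well above background, 0 with own and 10 nearest probes (1 with the 10 nearest alone), 0 with tumors pooled within class, 16 with slide as a random block, 6 without the 4 near-identical arrays, 4 without slides 1 to 5, 3 without BRCA1 tumors, 4 with scan date fixed as well, 12 with slide fixed without BRCA1, p53 and MMTV-H-Ras tumors, 101 as single probes and 282 without MMTV-Wnt1, where 1 of the 8 genes (Elf5) was called. Leaving out each tumor gave 26 to 149 genes and 0 to 1 of the 8, with 149 without p53 transplant replicate 2, 147 without replicate 3, 58 to 87 without BRCA1 replicate 1, 2 or 5 and 60 without MMTV-Wnt1 replicate 5. With tumors permuted in place of models, the permutation p was 0.0062 at Prlr and 0.005 at Elf5, not adjusted over the 8 genes. This treats tumors of 1 model as independent, which they need not be. The exact permutation of the model means gave 0.0286 and 0.2. By the F test, 4201 genes became 2527 with normexp, 1661 with slide as a random block and 2243 without the 4 arrays, and 3081 to 5086 without each tumor. Of the 8 genes, 4 became 2 with normexp (Elf5 and, not called before, Foxa1 at an adjusted p of 0.0451), 2 with random slide (Elf5 and Esr1), 2 without slides 1 to 5 (Elf5 and Stat5b), 1 without the 4 arrays (Elf5), 0 with the 10 nearest probes, with or without own probes, and 2 to 4 without each tumor (2 without BRCA1 replicate 2). The 7 calls of single models became 2 with normexp, 1 with the 10 nearest probes, with or without own probes (Prlr in MMTV-H-Ras, not 1 of the 7), 3 with random slide, 4 without the 4 arrays, 3 without slides 1 to 5 (Elf5 in MMTV-PyMT not 1 of the 7), and 3 to 7 without each tumor (4 without BRCA1 replicate 2 or 5, 3 without p53 transplant replicate 3). Losses at the 8 genes, 38, were 23 with calls at 0.3, 66 at 0.1 and 25 in the authors' intervals, and the 47 gains were 73 at 0.1.

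Signs of class differences turned as follows. With the dyes as labelled they were 0.087 at Esr1, 0.033 at Pgr, −0.233 at Prlr, −0.033 at Stat5a, 0.062 at Stat5b, −0.0057 at Gata3, 0.461 at Elf5 and 0.019 at Foxa1. Foxa1 (−0.02) was 0.034 with normexp, 0.013 with loess, 0.071 with own and 10 nearest probes, 0.0096 with tumors pooled or permuted, 0.0051 without MMTV-Wnt1, 0.0050 without slides 1 to 5, 0.048 without BRCA1 tumors, 0.047 with date fixed, 0.144 with slide fixed and 0.075 with the 10 nearest alone. Gata3 (0.01) was −0.00074 with loess, −0.054 with own and 10 nearest probes, −0.0073 with tumors pooled or permuted and with random slide, −0.020 without the 4 arrays, −0.0034 without the MMTV-Wnt1 array, −0.0040 with date fixed, −0.149 with slide fixed and −0.057 with the 10 nearest alone. Pgr was 0.010 without MMTV-Wnt1 and 0.021 without slides 1 to 5, Esr1 0.0017 without slides 1 to 5 and 0.012 with date fixed, Prlr −0.048 with slide fixed, and Stat5b 0.015 without BRCA1 tumors, 0.071 with date fixed and 0.0065 with the 10 nearest alone. Without each tumor, Gata3 ran from −0.024 to 0.053 and Foxa1 from −0.043 to 0.0080. Elf5 and Stat5a kept their sign throughout, apart from the turned dyes.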
